A study of Mus musculus with 2 samples.

Results

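Genes of the motile ciliary axoneme, the microtubule core of a beating cilium, were followed in sorted mouse lung epithelial cells. Genes of the transport particles that build and service cilia were followed beside them. The cells came from control mice and from mice labelled as having an induced deletion of the Hippo kinase genes Mst1 and Mst2. The members were taken by gene symbol: dynein arm genes (symbols starting Dnah, Dnai or Dnal), tektins, radial spoke genes, Spag genes, Ift and Bbs genes, Foxj1, Rfx1 to Rfx4, 4 Ccdc genes and 6 further genes of ciliated cells. This gave 72 of the 22072 gene symbols in the tables. Of these, 41 belong to the axoneme or to ciliated cells (Foxj1 among them) and 20 are Ift or Bbs genes. The other 11 were set on neither side: 4 Rfx factors, and 7 Spag genes matched by prefix, whose shared name comes from sperm.

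Each genotype was measured in 1 RNA-seq library (Nextera XT kit), for which the RNA of 4 adult mice had been pooled. Lung cells were sorted for the epithelial surface protein Epcam (CD326) and intermediate CD24 after lineage-positive cells were left out, a gate chosen to enrich secretory airway cells that bear no cilia. Mice of both groups carried tetOCre and were Mst1-flx/flx and Mst2-flx/flx, and all were fed doxycycline (625 mg/kg of food) over 16 days. Control mice carried nothing further, while the other mice, labelled Mst1/2 D/D, also carried Scgb1a1-rtTA, in which the Scgb1a1 promoter of secretory airway cells drives the doxycycline-dependent activator that switches on Cre. The libraries therefore differ in the activator, in active Cre and in the intended deletion, and effects of these cannot be told apart. The second library is called the D/D-labelled library below. With 1 pooled library a genotype there is no replicate check of any difference below and no p-value is given.

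In a motile cilium, dynein arms bound along the outer doublet microtubules slide them against each other, while radial spokes and the central apparatus set the pattern of the beat. Multiciliated airway cells switch these genes on together under the factor Foxj1 and Rfx factors, which bind a promoter element called the X-box. Intraflagellar transport (IFT) trains carry building material along the axoneme and the BBSome carries membrane proteins; both serve nearly every kind of cilium, including the single primary cilium of cells that do not move fluid.

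X-box letters were found in promoters of both sides, a feature the symbol rule did not use, and 7 genes with matches are shown first. The windows are RefSeq promoter windows of build GRCm38.p6, a later build than the mm9 coordinates of the expression tables, and each line gives 100 bases upstream of the gene's start (directly upstream, except in Bbs7, where they end 51 bases before it), 5′ to 3′ on the gene's own strand. Capitals mark the bases that match the searched pattern, which is GTNNCC followed after a gap of 1, 2 or 3 bases by GNAAC, on either strand. The windows stand at chr11:58801961-58802060 on the minus strand for Fam183b, chr8:116504915-116505014 on the plus strand for Dynlrb2, chr4:41569694-41569793 on the plus strand for Dnaic1, chr11:114727319-114727418 on the plus strand for Dnaic2, chr11:66168552-66168651 on the minus strand for Dnahc9 (Dnah9 in RefSeq), chr16:49699194-49699293 on the plus strand for Ift57 and chr3:36613440-36613539 on the minus strand for Bbs7.
Fam183b: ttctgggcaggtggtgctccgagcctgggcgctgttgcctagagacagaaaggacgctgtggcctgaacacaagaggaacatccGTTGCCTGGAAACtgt
Dynlrb2: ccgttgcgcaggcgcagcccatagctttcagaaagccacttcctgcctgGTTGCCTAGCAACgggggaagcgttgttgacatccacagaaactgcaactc
Dnaic1: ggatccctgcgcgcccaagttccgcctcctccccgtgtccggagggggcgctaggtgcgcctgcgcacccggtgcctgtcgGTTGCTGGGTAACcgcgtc
Dnaic2: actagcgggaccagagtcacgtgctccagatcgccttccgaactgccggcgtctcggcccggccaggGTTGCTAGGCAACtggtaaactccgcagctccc
Dnahc9: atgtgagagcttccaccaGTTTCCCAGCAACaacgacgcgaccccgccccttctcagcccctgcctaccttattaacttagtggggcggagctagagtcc
Ift57: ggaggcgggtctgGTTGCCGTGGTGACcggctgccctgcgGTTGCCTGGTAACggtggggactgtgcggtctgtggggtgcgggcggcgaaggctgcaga
Bbs7: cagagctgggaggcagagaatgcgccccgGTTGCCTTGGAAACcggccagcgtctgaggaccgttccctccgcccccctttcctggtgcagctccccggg

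In the axoneme genes shown, chosen with a match in the printed stretch, the match began 16 bases upstream in Fam183b, 19 in Dnaic1, 33 in Dnaic2, 51 in Dynlrb2 and 82 in Dnahc9. Ift57 carried 2 matches within the window shown, beginning 87 and 60 bases upstream, and in Bbs7 the match began 121 bases upstream. A RefSeq window reaching from 250 bases before to 50 bases after the start was given for 62 of the 72 members, and 18 of these (29%) held the pattern. It was found in 5.2% of all 27025 genes with a window and in 5.76% of the 7018 of them whose symbols matched genes listed at an FPKM of 1 or more here. The share was 33.3% on the axoneme side (12 of 36 genes) and 29.4% on the transport side (5 of 17 genes), so that the letters alone did not set the sides apart. Among the 11 genes of neither side, 9 had a window and 1 held the pattern. The single strict arm GTTGCC, which overlaps many of these matches, was in 27 windows (43.5%), against 14.1% of all genes. The forkhead core TGTTTAC, searched on both strands because Foxj1 is a forkhead protein, was in 4 axoneme windows and in none of the 17 transport windows, or 6.45% of the members' windows against 4.05% of all genes. A match of letters is not a measured binding site, and a window without one shows only that these letters are not in it.

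**Figure D1:**
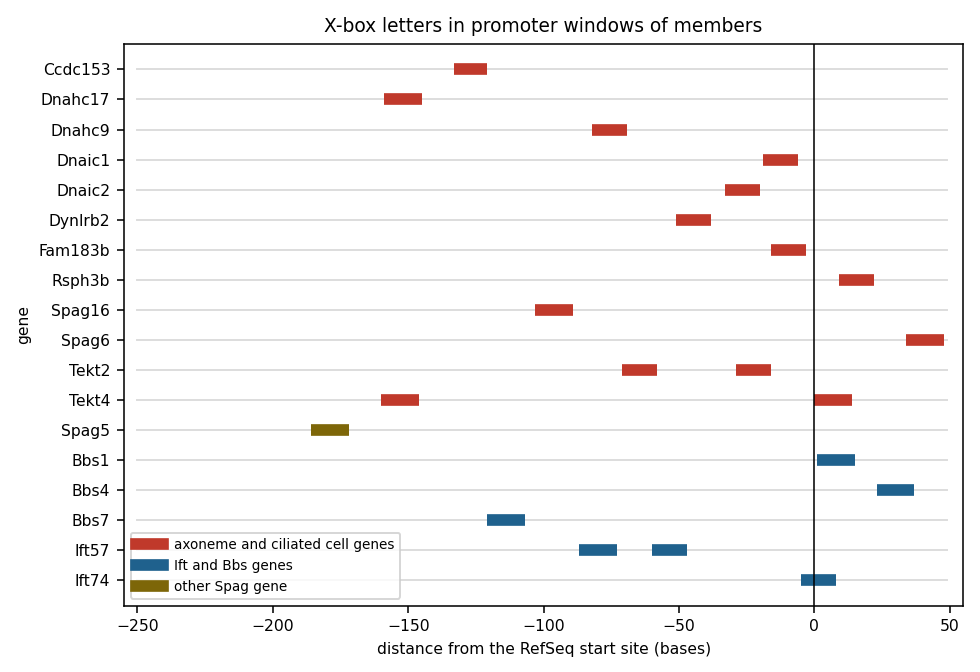
Position of each X-box match in the promoter windows of the 18 members that have one, with distance from the RefSeq start site in bases on the x axis and 1 gene a line. Bars are drawn to scale, red for axoneme and ciliated cell genes, blue for Ift and Bbs genes and olive for a Spag gene of neither side; the Tekt2 bars come from the windows of different starts.

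Both libraries had a like depth. The listed transcripts drew about 8770000 reads in the control and 8340000 in the D/D-labelled library, estimated from the deposited coverage. Levels are FPKM, fragment counts corrected for transcript length and library size, summed over a gene's transcripts, so that levels can be set side by side between genes. Stk4, which encodes Mst1, was at 5.38 in the control and 4.71 in the D/D-labelled library, and Stk3, which encodes Mst2, at 7.28 and 7.09. These sums do not show a loss of either transcript; which exons are floxed is not given in the sources used here, and the genotype is taken from the label alone. The sort was checked by its antigens, Epcam at 28.2 and 31.0 and Cd24a at 127 and 116. It was also checked by the secretory cell gene Cyp2f2, at 4694 and 5305. The alveolar type 2 gene Sftpc had the highest level of all genes, at 7888 and 10270, so the RNA was not of airway cells alone. Scgb1a1, the defining transcript of club cells, is listed at 0 in both tables with a failed estimate and checks nothing. Markers of other cells moved between the libraries. Of 10 alveolar type 1 (AT1) markers, 8 were at least 1.5-fold higher in the D/D-labelled library (summed FPKM 137 and 338). Of 8 alveolar type 2 markers 0 passed that fold in either direction (summed 11207 and 13990). All 8 were nevertheless higher in the D/D-labelled library, with a median FPKM ratio of 1.31. Of 7 club cell markers Cyp2f2 alone was higher, and the other 6 were lower, 3 of them at least 1.5-fold (summed 11269 and 9624). Cyp2f2 therefore does not stand for the other club cell markers. Of the 5 leukocyte markers that reached an FPKM of 1, 4 were at least 1.5-fold lower (12.4 and 4.66 summed over all 7 on the list). Their part in the values below was not tested.

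Most axoneme genes were listed somewhat higher in the D/D-labelled library, from low levels in both. Of the 41 axoneme and ciliated cell genes, 35 had the higher value there and 6 the lower, and their FPKM summed to 55.7 in the control and 84.3 in the D/D-labelled library, 1.51-fold. Without Tppp3, which alone makes up much of that sum, the ratio was 1.43. The 20 Ift and Bbs genes summed to 86.4 and 94.5, 1.09-fold, or 1.11-fold without Ift20, and 14 had the higher value and 6 the lower. Over all genes the ratio of the sums was 1.04. Of the 9945 genes with an FPKM of 1 or more in either library, 63.2% had the higher value in the D/D-labelled library. In bulk RNA, more cells of a type and more RNA per cell cannot be told apart.

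To set the members beside all genes, the difference was taken as log2(FPKM + 1) in the D/D-labelled library minus the control for genes whose FPKM reached 1 in either library. A gene that is near this level passes through whichever library is higher, so the counts describe the members and are read only beside the same counts over all genes. Of the 72 members 40 passed, and 34 of these were above 0, where 63.2% of all 9945 genes that passed were. The difference reached 1.5-fold upward in 4 members, against 3.02% of all genes, and downward in 0 members, against 2.59%. All 4 were on the axoneme side: Fam183b, Dnahc11, Tppp3 and Ak7. Of these, Fam183b, Dnahc11 and Ak7 passed the filter through the D/D-labelled library alone. On the axoneme side 10 of the 19 genes that passed did so, against 2 of 16 transport genes. The filter therefore bears on this split and on the medians that follow. The median difference was 0.27 for the 19 axoneme genes that passed and 0.12 for the 16 transport genes, against 0.07 for all genes.

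Because the added 1 hides much of the change of genes below an FPKM of 1, where 32 members lay in both libraries, the plain FPKM ratio was taken as well, for genes with at least 10 approximate reads in each library. By that measure 59 members could be read, and 14 had a ratio of at least 1.5, against 8.41% of 12705 genes. None had a ratio of 1/1.5 or below, against 6.6%. The read rule left out Ift27, at a ratio of 0.296 (interval 0.105 to 0.818), which had 6 reads in the D/D-labelled library. In the other direction it left out Fam183b, at a ratio of 9.72 on 3 control reads. Of the 35 axoneme genes with this depth 32 were above 1 and 11 reached 1.5, with a median ratio of 1.37. Of the 18 transport genes 13 were above 1 and 2 reached 1.5, with a median of 1.13. Over all genes with this depth 61% were above 1, and the median was 1.06. Intervals given with ratios are 95% Clopper-Pearson intervals that cover counting error only, and 14 of the 35 axoneme intervals and 4 of the 18 transport intervals lay above 1, against 25.2% over all genes.

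**Figure D2:**
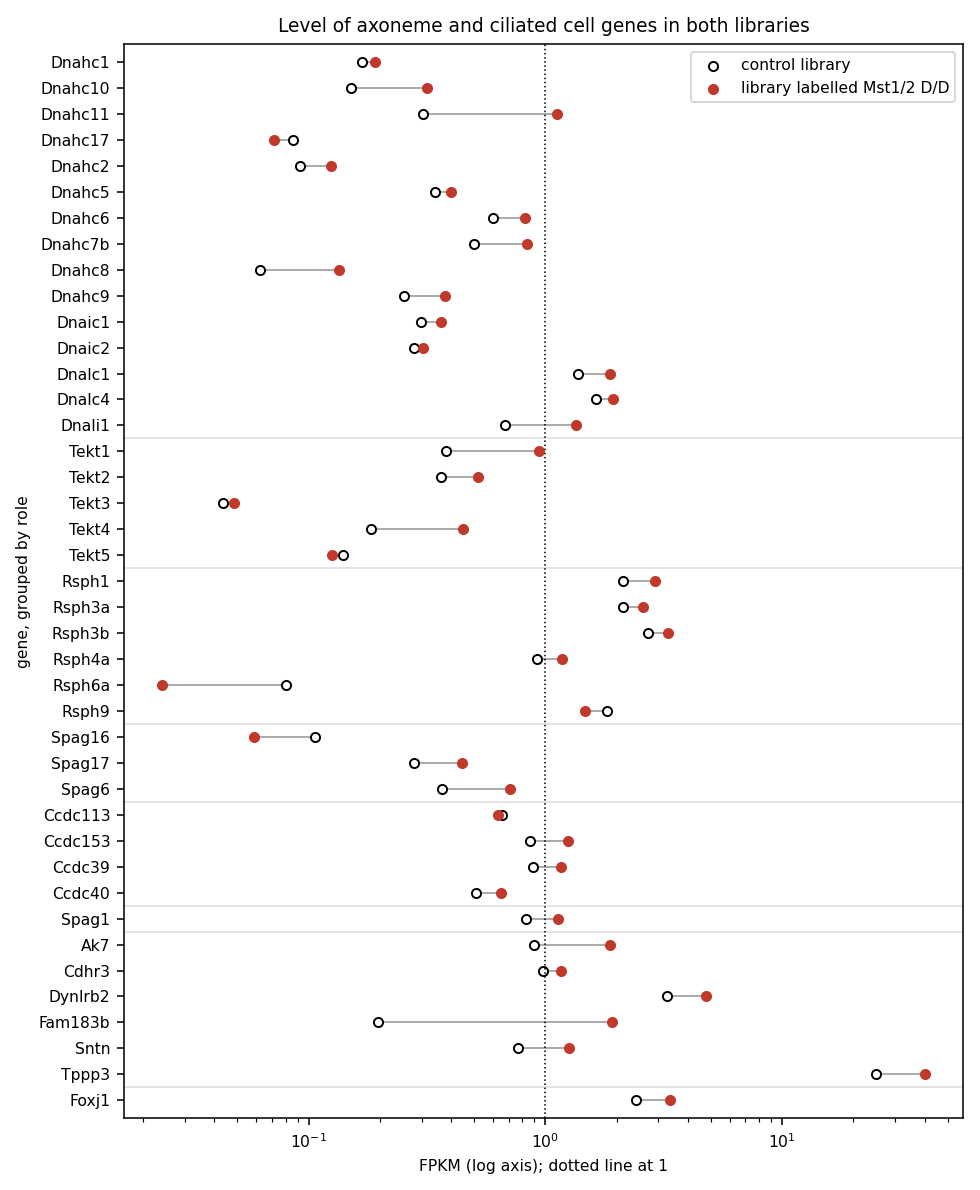
FPKM on a log axis for the 41 axoneme and ciliated cell genes, grouped by role, in the control library (open points) and in the library labelled Mst1/2 D/D (red points); a grey line joins the 2 values of a gene. In 35 of the 41 genes the red point lies to the right, and most genes other than Tppp3 lie near or below the dotted line at an FPKM of 1.

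**Figure D3:**
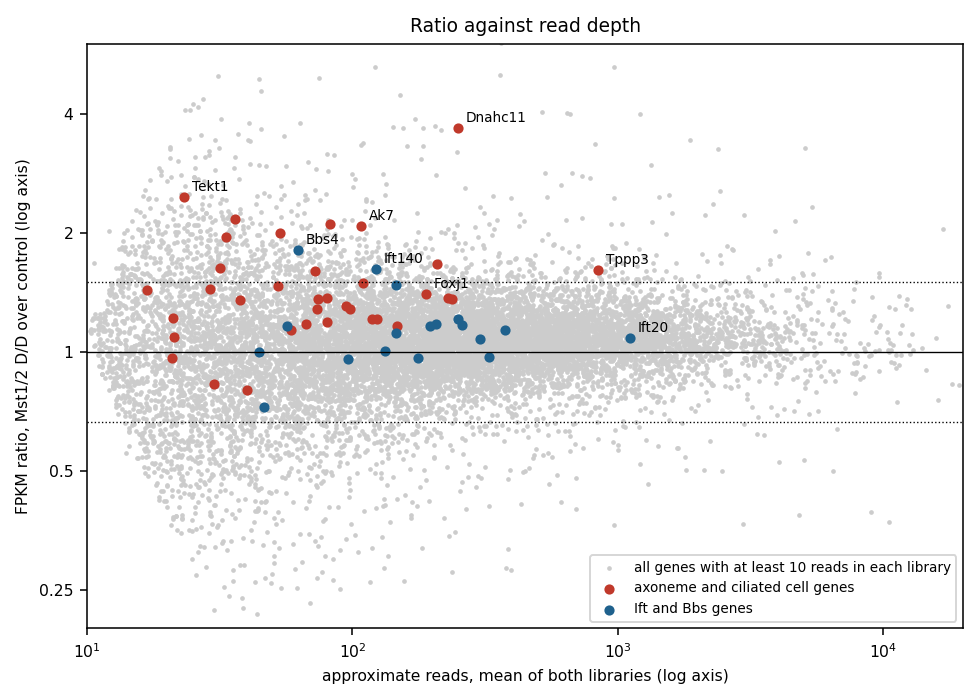
FPKM ratio of the D/D-labelled library over the control against the approximate reads of a gene, both on log axes, for all genes with at least 10 reads in each library (grey), axoneme and ciliated cell genes (red) and Ift and Bbs genes (blue); dotted lines mark 1.5-fold in each direction, and 43 genes, none of them members, lie outside the axes. The red points lie mostly above 1 at every depth and none lies under the lower dotted line, while most blue points lie close to 1.

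The dynein motors come first. The 10 heavy chains, the ATP-driven motor subunits, lay between an FPKM of 0.0625 and 0.599 in the control and between 0.0715 and 1.12 in the D/D-labelled library, 9 of them higher there. Dnahc11, an outer arm heavy chain needed for the normal beat (chromosome 12, 119116455 to 119437516, mm9), was at 0.305 in the control and 1.12 in the D/D-labelled library. That is a ratio of 3.68 with an interval of 2.99 to 4.58, on about 116 and 383 reads. The locus of Dnahc11 shares 725 bases with that of Cdca7l, a gene at 0.801 and 1.11, and reads there cannot be told apart without strand. With the trend on transcript length removed, its log2(FPKM + 1) difference went from 0.70 to 0.56, under the 1.5-fold line. Its ratio was the highest among the heavy chains, with an interval that overlaps that of Dnahc8.

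Dnahc5, the outer arm chain most often mutated in primary ciliary dyskinesia, was at 0.343 and 0.399, a ratio of 1.16 whose interval of 0.921 to 1.47 includes 1. Dnahc9, the partner of Dnahc5 in the outer arm and the gene with the X-box 82 bases upstream above, was at 0.252 and 0.377, a ratio of 1.49 with an interval of 1.14 to 1.98. The inner arm chains Dnahc10 and Dnahc7b had ratios of 2.099 (interval 1.52 to 2.97) and 1.67 (interval 1.36 to 2.04). Dnahc8, a chain best known from sperm, had one of 2.16 (interval 1.297 to 3.63). Dnahc17, at 0.0859 and 0.0715, was the one heavy chain with the lower value in the D/D-labelled library, and its interval of 0.480 to 1.42 includes 1. Chains of the same arm thus did not share 1 ratio.

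Since heavy chain transcripts are very long, they were set beside the 99 other genes with transcripts of at least 12000 bases. Those had a median ratio of 1.09, against 1.06 over all genes, with 67.7% above 1 against 61%, and 7.07% at 1.5 or more against 8.41%. The heavy chains had a median of 1.43, with 4 of 10 at 1.5 or more. With the trend on transcript length over all genes removed, that median was 1.29 and the same number of chains, 4, reached 1.5.

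The 5 smaller dynein arm subunits all had the higher value in the D/D-labelled library, with ratios from 1.09 to 1.99. Dnali1, a light intermediate chain of the inner arms, was at 0.677 and 1.35, which lies just under the 1.5-fold line on log2(FPKM + 1) at 0.49, although the plain ratio was 1.99 (interval 1.33 to 3.06). Its locus shares 44 bases with that of Gnl2. Dnalc1, an outer arm light chain, was at 1.37 and 1.87, and Dnalc4, another light chain, at 1.63 and 1.92. The outer arm intermediate chains help fix the arm to the doublet. Dnaic1 was at 0.299 and 0.363 (ratio 1.22, interval 0.640 to 2.38, on about 20 and 22 reads) and Dnaic2 at 0.278 and 0.303 (ratio 1.09, interval 0.558 to 2.03). Both have the X-box letters near the start, as shown above, and their low counts leave the ratios imprecise. Spag1, a cytoplasmic factor that helps assemble the arms before they enter the cilium, was at 0.827 and 1.13.

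The tektins, filament proteins inside the doublet walls, were all below an FPKM of 1 in both libraries. Tekt1, at 0.381 and 0.9395, had a ratio of 2.46 with an interval of 1.25 to 4.74, on 15 and 32 reads. Tekt2 was at 0.363 and 0.521, and the other tektins had under 10 reads in at least 1 library. Of the central apparatus genes, Spag6 was at 0.365 and 0.710 (ratio 1.95, interval 1.16 to 3.38) and Spag17 at 0.279 and 0.445 (ratio 1.60, interval 1.14 to 2.28), while Spag16 had no more than 6 reads. All of these intervals are wide, since no tektin or central apparatus gene had over 85 reads.

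The radial spoke genes had the highest median level of the structural groups in the control, 1.98, and a median ratio of 1.21 over the 5 with 10 reads in each library. Rsph3b was at 2.72 and 3.29 and its near-identical copy Rsph3a at 2.14 and 2.59, values that the assignment of shared reads can split between them. Rsph1, a spoke head protein, was at 2.13 and 2.90, with a ratio of 1.36 whose interval of 0.979 to 1.92 includes 1, and Rsph4a, another spoke head protein, at 0.922 and 1.18. Rsph9, also of the spoke head, went the other way at 1.83 and 1.46, the lowest difference of any member that passed, -0.20 on log2(FPKM + 1); its ratio interval of 0.487 to 1.25 includes 1. The values of the spoke head genes thus lay in both directions, within counting error. Of the coiled-coil genes, Ccdc39 and Ccdc40, which together set the repeat along the doublet at which spokes and inner arms attach, were at 0.888 and 1.16, and at 0.507 and 0.650. Ccdc153 was at 0.865 and 1.25 and Ccdc113 at 0.654 and 0.630.

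The genes that mark ciliated cells without forming the arms or spokes held 3 of the 4 members past the fold. Fam183b, a small protein of ciliated cells with the X-box 16 bases upstream, was at 0.196 in the control and 1.91 in the D/D-labelled library, the largest difference of any member at 1.28 on log2(FPKM + 1). It rests on about 3 and 26 reads, so that the ratio of 9.72 has an interval of 2.97 to 50.01. Tppp3, a tubulin-polymerizing protein of ciliated airway cells (chromosome 8, 107991392 to 107995322, mm9), was at 24.98 and 40.2, a ratio of 1.61 with an interval of 1.46 to 1.77 on about 693 and 996 reads. Tppp3 was far above every other axoneme gene in both libraries; the next, Dynlrb2, was at 3.26 and 4.79. Ak7, an adenylate kinase of motile cilia, was at 0.899 and 1.87 (ratio 2.08, interval 1.57 to 2.80) and lay just inside the fold on log2(FPKM + 1), at 0.59 where the line is 0.58. It fell under that line with the length trend removed (0.52) or with the median of all genes subtracted (0.53). Sntn, a protein of the ciliary tip, was at 0.769 and 1.25, with an interval of 0.967 to 2.80 for its ratio of 1.63. Cdhr3, a cadherin of ciliated cells, was at 0.975 and 1.16. Dynlrb2, a light chain that also serves cytoplasmic and transport dyneins, had a ratio of 1.47 with an interval of 0.977 to 2.19. All 6 of these genes had the higher value in the D/D-labelled library, but 3 of the 5 with 10 reads in each had intervals that include 1.

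Foxj1, the factor that turns on the motile cilium program, was at 2.41 in the control and 3.38 in the D/D-labelled library (chromosome 11, 116192018 to 116196668, mm9). Its ratio was 1.40 with an interval of 1.14 to 1.73, on about 168 and 211 reads, close to the median ratio of 1.37 over the axoneme genes. Rfx2 was at 1.69 and 2.56, a ratio of 1.51 with an interval of 1.22 to 1.88. Rfx3, with Rfx2 the factor best known from ciliated cells, was at 1.41 and 1.45, and Rfx1 at 1.495 and 1.28; both intervals include 1. Rfx4 was near 0 in both. Of the X-box factors, Rfx2 alone had an interval that leaves out 1. Rfx3 has 2 transcripts in the tables, at 0.641 and 0.767 in the control, and 1 of them took nearly all of the gene's level in the D/D-labelled library (1.45), so only the sum is used.

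The transport genes were on the whole more abundant than the axoneme genes and differed less between the libraries. The median FPKM of the 20 genes was 1.62 in the control and 1.88 in the D/D-labelled library, where that of the 41 axoneme genes was 0.501 and 0.836. Ift20, a subunit that also works at the Golgi in cells with no motile cilium, was at 51.8 and 56.1, far above every other Ift gene, with a ratio of 1.08 and an interval of 0.997 to 1.18. The other Ift genes of the train complex that moves toward the tip, IFT-B, lay between 0.773 and 4.39 in the control. Ift81 and Ift74, which together bind the tubulin cargo, were at 4.39 and 4.26, and at 1.81 and 1.73. Ift52 was at 4.18 and 5.07, Ift172 at 2.55 and 2.89, and Ift46 at 2.22 and 2.62. Ift57, with 2 X-box matches above, was at 2.12 and 2.37, and Ift80 at 1.73 and 2.02. Of these 7 genes Ift52 alone had an interval that leaves out 1 (1.02 to 1.46).

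Ift88, the subunit whose loss in mice is the classic defect of cilium assembly, was higher in the D/D-labelled library, at 1.52 and 2.23 (ratio 1.47, interval 1.16 to 1.87). Ift140, of the IFT-A complex that brings trains back to the base, was at 0.637 and 1.03 (ratio 1.62, interval 1.25 to 2.11), and its partner Ift122 at 1.26 and 1.27. The locus of Ift140 shares 23413 bases with that of Tmem204, which was at 0.197 and 0.0188. Ift27, a small GTPase that links trains to the BBSome, was at 0.773 and 0.229, lower by a factor of 3.38 with an interval of 1.22 to 9.48. It rests on 21 and 6 reads and was named after its value was seen, since it lies below an FPKM of 1 in both libraries. The listed ratios thus also differed within 1 transport complex. The interval of Ift122, 0.783 to 1.29, overlaps that of Ift140, however, and no difference within a complex has a replicate check.

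Most BBSome genes differed little. Bbs2 was at 3.88 and 4.17, Bbs9 at 2.76 and 3.22, Bbs1 at 1.25 and 1.21 and Bbs5 at 1.22 in both libraries, all subunits of the coat itself and all with ratio intervals that include 1. Bbs4, another subunit of the coat, was the exception at 0.692 and 1.25, with a ratio of 1.81 and an interval of 1.23 to 2.63. The other Bbs genes, Bbs7, Bbs10 and Bbs12, were below 1 in both. The median ratio of the 7 Bbs genes with 10 reads in each library was 1.08 and that of the 11 Ift genes 1.13, beside 1.06 over all genes. Among the 7 Spag genes set on neither side, Spag9, a scaffold of stress kinases, was at 6.54 and 7.48 and Spag7 at 3.003 and 4.03. The other 5 had an FPKM of no more than 0.232 in either library, and Spag11a was listed at 0 in both.

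**Figure D4:**
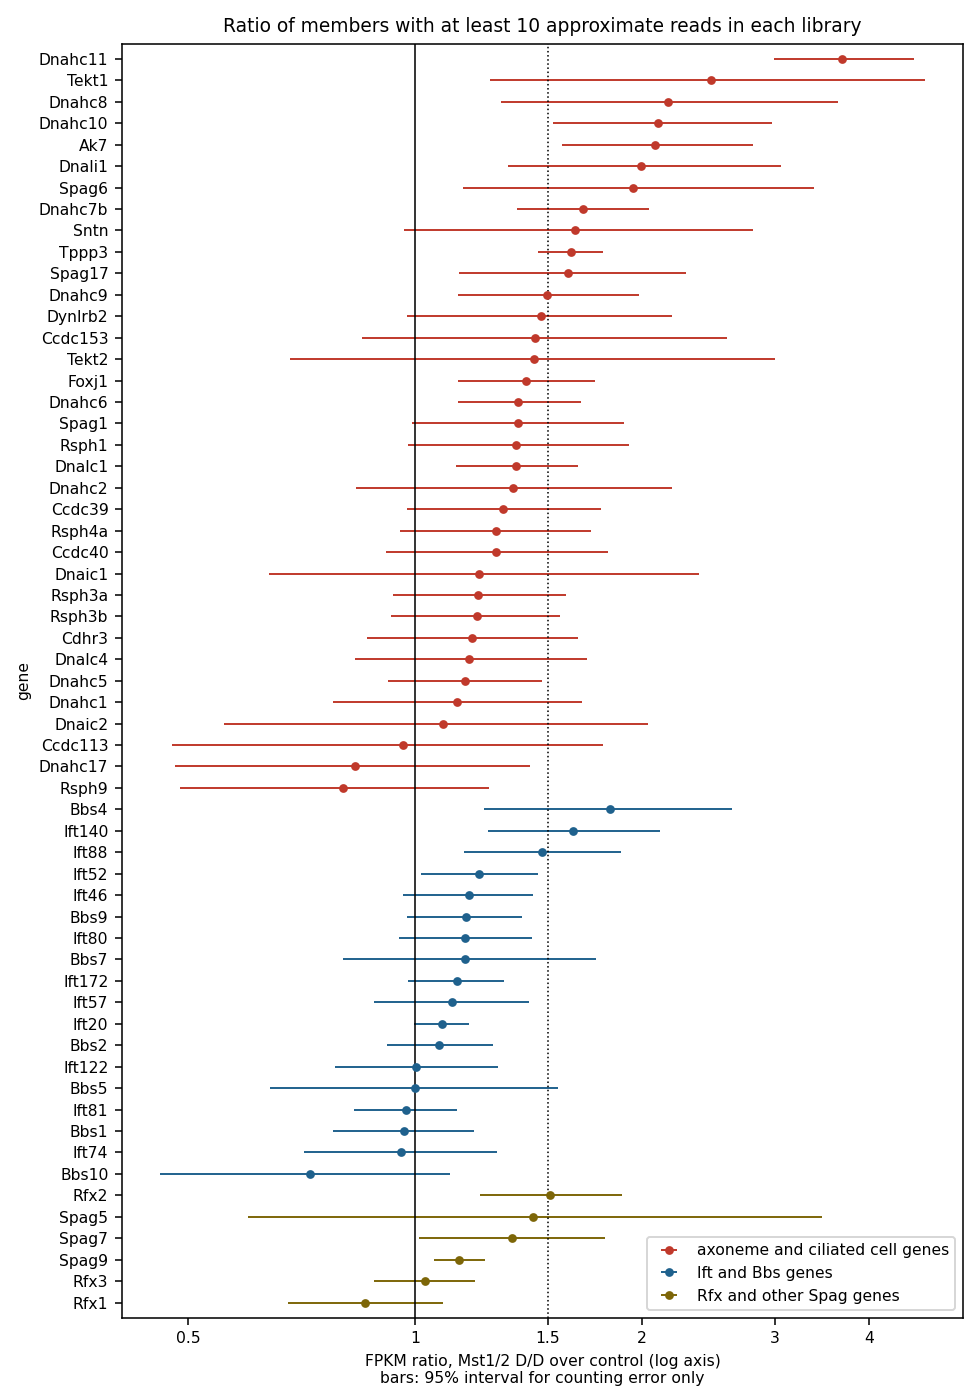
FPKM ratio of the D/D-labelled library over the control, on a log axis, for the members with at least 10 approximate reads in each library; bars are 95% intervals for counting error only. Dnahc11 has the highest ratio, 3.68. The median ratio of the Ift and Bbs genes, 1.13, lies closer to 1 than that of the axoneme genes, 1.37, but single genes overlap. Bbs4 at 1.81 and Ift140 at 1.62 are the highest of the Ift and Bbs genes.

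The difference between the sides was then read as 1 number, the median log2(FPKM + 1) difference of the axoneme genes minus that of the transport genes, which was 0.15. Of the 19 axoneme genes 10 passed the filter through the D/D-labelled library alone, against 2 of the 16 transport genes, and 0 on either side through the control alone, so the filter itself bears on this number. Over all 41 and 20 genes with no filter it was 0.08. The axoneme side is mixed in how its genes are known: the 31 structural genes alone had a median of 0.20, over the 10 that passed, with 1 gene past 1.5-fold. The difference of the medians was then 0.08. Without Tppp3, Fam183b and Ift20 it was 0.14.

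Cilium genes outside the symbol rule were read as lists. Of 40 other motile cilium and multiciliation genes that the tables list, 12 passed, with a median difference of 0.39, 3 genes at least 1.5-fold higher and 0 lower. Over all genes 3.02% were that much higher and 2.59% lower, and the counts of every outside list are read beside these shares. Enkur, a protein of the sperm tail and motile cilia, was at 0.7997 and 2.36, Ccno, a cyclin of multiciliated cell precursors, at 1.09 and 2.36, and Spa17 at 1.32 and 2.54. Nme7 and Capsl, the most abundant genes of that list, were at 13.0 in both libraries and at 9.45 and 8.51, unlike Tppp3 among the members, which was abundant and higher. The median of the list depended on the filter: it was 0.18 with none, and -0.0697 at an FPKM of at least 5, where Nme7 and Capsl alone were left. By the plain ratio 33 of these genes could be read, with a median of 1.59 and 18 at 1.5 or more, against 8.41% of all genes.

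The 20 other IFT and motor genes had a median difference of 0.12 over the 16 that passed, with 1 gene higher and 0 lower. Rabl5, a GTPase of the IFT-B train, was at 0.525 and 1.86, Traf3ip1 at 2.31 and 3.28, Wdr35 at 1.21 and 1.73, Tctex1d2 at 3.68 and 2.78, and the kinesin subunit Kifap3 at 3.38 and 3.48. The 6 other BBSome genes had a median of 0.15 with 0 past 1.5-fold; Arl6, the GTPase that brings the BBSome to membranes, was at 1.48 and 2.46, Bbip1 at 1.93 and 2.60, Ttc8 at 1.42 and 1.94, Mkks at 1.70 and 1.44, and Lztfl1 at 3.03 and 2.84. Of the 13 transition zone genes, which form the gate at the base of the cilium, 8 passed with a median of 0.12, and 1 was at least 1.5-fold higher. Tctn2 was at 0.632 and 1.82, B9d1 at 0.988 and 1.95, Ahi1 at 0.952 and 1.51, Cc2d2a at 1.89 and 1.47, and Cep290 at 2.39 and 2.69. The medians of these lists lay near that of the Ift and Bbs members.

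**Figure D5:**
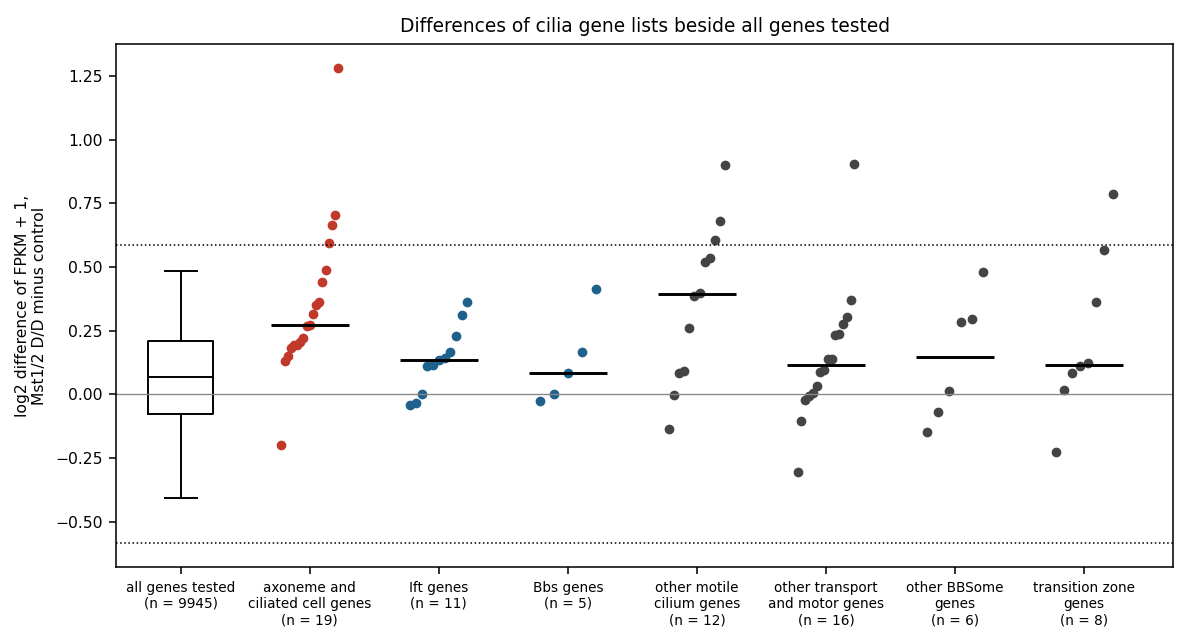
Difference in log2(FPKM + 1), D/D-labelled library minus control, of each gene whose FPKM reached 1 in either library, by list; each point is a gene, each bar a list’s median, and the box shows the quartiles of all 9945 genes. The medians of the axoneme side (0.27) and of the other motile cilium genes (0.39) lie above those of the transport lists and above the median of 0.07 over all genes.

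Ciliated cells are not the cells that the sort was set to enrich, and their other markers were read beside the axoneme genes. Of 8 such markers outside the members 6 are in the tables, none at 0 in both libraries, and 3 passed, of which 1 was at least 1.5-fold higher in the D/D-labelled library. They summed to 12.5 in the control and 15.0 in the D/D-labelled library, or to 3.06 and 6.48 without Capsl. By the plain ratio 5 of the 6 were above 1; all 6 also stand in the motile cilium list above and are no separate evidence. The axoneme genes thus differed in the same direction as most of these markers. In the same libraries most alveolar type 1 and all alveolar type 2 markers were higher, and most club cell and leukocyte markers lower. What part a different share of ciliated cells in the sort has in the axoneme values was not tested.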

How the data were processed

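Each pooled library has 1 deposited table of 28107 RefSeq transcript entries. Reads were processed with TopHat and Cufflinks on build mm9, per the submitters' processing notes, with versions, read length and strand not given in the sources used here. As the file headers show, the authors deposited FPKM and a coverage value per entry. From these, entries were joined on identifier, symbol, position and length, and FPKM was summed per symbol. All 72 members had the status OK in both tables. Differences were taken on log2(FPKM + 1) for genes at FPKM 1 or more in a library, with a 1.5-fold line. Approximate reads are the deposited coverage × length over 47.1 bases, the step seen at low values, which assumes that the step is 1 read; intervals (95%, Clopper-Pearson) were divided by a depth ratio of 0.895 and cover counting error only. The plain ratio with 10 reads in each library was chosen after seeing the data. The calculations were tested on simulated data. Starts were taken as 0-based, as 99.7% of 654 microRNA entries are, and are printed 1-based.

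Members, lists and alternatives were chosen with earlier results of these data known. Every member at FPKM 1 or more in a library is named, with 12 fixed names at any level; outside lists name the 4 largest differences and the 2 highest levels. A gene that this rule takes is not reported here. Lower members given with values were named after their values were seen. Python 3.11.15, pandas 2.3.3 and scipy 1.17.1 were used.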

Additional observations from a re-analysis of the deposited data

How the results depend on the processing

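No paired analysis was possible because each genotype is 1 pooled library and the labels give no replicate numbers; leaving out a replicate was likewise not possible. Depth limits the lowest genes: 13 of the 72 members had under 10 approximate reads in a library, and Fam183b rests on 3 control reads. The median difference of the axoneme side lay between 0.19 and 0.66 over 16 alternatives, that of the transport side between 0.05 and 0.17, and the axoneme median minus the transport median between 0.08 and 0.49, so that none of these changed sign.

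In the counts that follow, higher and lower mean past 1.5-fold. The lists are the members, the axoneme side, the transport side, and outside them the motile, BBSome, IFT and transition zone lists. The share of all genes tested that was higher also moved, from 3.02% in the main setting. It was 6.17% and 4.34% with pseudocounts of 0.1 and 0.5, and 3.79% with FPKM of at least 5. It was 4.83% with the highest entry, 6.79% in TPM, 2.47% with the length trend removed and 8.86% at a fold of 1.3. By the plain ratio it was 8.41%, or 6.26% without the length trend. The share lower was 8.79% in TPM, and 6.6% and 7.95% by the ratio with and without that trend. With a pseudocount of 0.1, 8 members, 2 transport, 1 BBSome, 7 motile and 3 transition zone genes were higher, the axoneme and motile medians were 0.43 and 0.69, and the axoneme median exceeded the transport median by 0.26. With 0.5, 5 motile and 2 transition zone genes were higher and the motile median was 0.52. With no filter the motile median was 0.18. With FPKM of at least 5, Tppp3 alone stood for the axoneme side (1 gene higher, median 0.66, 0.49 above the transport median), and the motile median turned to -0.0697 with 0 genes higher, since Nme7 and Capsl alone were left. With the highest entry per symbol the BBSome median was 0.28 with 1 gene higher. Rescaling to TPM raised every value while the filter at 1 and the added 1 were kept. It thus also lowered the floor, and 14070 genes passed against 9945. In TPM, 10 members (9 axoneme, 1 transport), 1 BBSome, 14 motile and 2 transition zone genes were higher. Lower in TPM were 1 member, 1 transport, 1 IFT and 1 motile gene, and the axoneme median exceeded the transport median by 0.25. With the transcript length trend removed, 2 members, both axoneme, and 2 transition zone genes were higher: Dnahc11 (0.56) and Ak7 (0.52) fell under the line. With a fold of 1.3, 8 members, 1 transport, 1 BBSome, 7 motile and 2 transition zone genes were past it. By the plain ratio, the medians on the log2 scale were 0.36 for members, 0.45 for axoneme and 0.67 for motile genes, the axoneme median exceeded the transport median by 0.28, 14 members (11 axoneme, 2 transport), 1 BBSome, 18 motile and 3 transition zone genes were higher, and 1 IFT and 1 transition zone gene lower. With the length trend removed from that ratio, 12 members (11 axoneme, 1 transport), 1 BBSome, 15 motile and 2 transition zone genes were higher, 1 IFT and 1 transition zone gene lower, the motile median was 0.56 and the axoneme median exceeded the transport median by 0.26. With structural genes alone 1 axoneme gene was higher, and without Tppp3, Fam183b and Ift20, 2 were.

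Over all genes the split of higher against lower was 300 to 258; it was 208 to 325 after subtracting the median of all genes, when Ak7 (0.53) fell under the line, and 955 to 1237 of 14070 genes in TPM. For single genes, 10 values moved beyond their counting interval. The sign of Rfx3 (0.02) turned in 4 settings, to as low as -0.11, and that of Ift122 (0.00253) in 4, to as low as -0.11; no other gene named among the members that passed changed sign. Except where the construction of an alternative shows it, the cause was not tested.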
